A study of Mus musculus with 71 samples.

Results

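The cell cycle driver and Myc genes described here are 10 genes, the D-type cyclin genes Ccnd1, Ccnd2 and Ccnd3, the kinase genes Cdk4 and Cdk6, the inhibitor genes Cdkn1a and Cdkn2a, the transcription factor gene E2f3, and Myc and Mycn. They were taken by name, with earlier results of these data known. Their loops were those of the merged H3K27ac HiChIP list that had an anchor within 2 kb of the transcription start site (TSS) of any GENCODE transcript of the gene. By this rule 63 of the 24244 loops in the list (0.260%) belonged to the 10 genes. HiChIP joins chromatin conformation capture to immunoprecipitation, here with an antibody against H3K27ac, a histone mark of active promoters and enhancers. The loops came from 2 synovial sarcomas (SyS) of hSS2 mice. In these mice human SS18::SSX2, the fusion oncogene of synovial sarcoma, is expressed from Rosa26 after Cre recombination, and both tumors shared this allele and the same way of induction, an injection of TATCre protein into the limb in the second week of life. TATCre acts on whichever cells it enters at the site. The tumors were dissociated before the assay and may hold host cells besides tumor cells. The animals were of mixed strain and of either sex, and HiChIP of normal tissue was not analysed here.

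D-type cyclins bind CDK4 and CDK6, and the active kinases phosphorylate the RB family, which releases E2F factors to start DNA replication. The Cdkn2a locus encodes p16Ink4a, which blocks CDK4 and CDK6, and from a separate upstream start p19Arf, which stabilizes p53. Cdkn1a encodes p21, a p53 target that restrains several cyclin-CDK complexes. Myc and Mycn encode transcription factors that raise the expression of growth genes, and in other tumors they are often amplified or driven by distant enhancers.

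Each loop has a count of paired-end tags, and the loop score of a gene is the sum of the tags over its loops. The list held 41574 tags in all and gives no value per tumor. It runs through the genome in order and then starts again, so it is made of a first part of 13683 loops and a second part of 10561 loops with no tumor name, and the parts were not taken as replicates. No test was therefore possible, and all values are descriptions of the merged list. Intervals of loop scores are exact Poisson 95% intervals and those of shares Wilson 95% intervals, and both cover counting error only, since the list gives no spread between tumors. A score sums only loops that entered the list, and its interval does not take that limit into account. The intervals of shares treat loops or sites as independent, though those of a gene share promoter anchors. A loop present in few cells and a weaker loop in all cells cannot be told apart in such data, and the tumor label could not be checked against marker genes in a list of loops.

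Sequences are shown for the promoter ends of Ccnd3 and Cdkn1a, which are among the 3 genes with the highest loop scores, and for the far ends of the strongest loops of Ccnd3 and Ccnd2, since these are the pieces of chromatin that the tags join. All are from GRCm38, the assembly that mm10 denotes, and are written 5' to 3' with the MboI site GATC in capitals, because HiChIP ligates chromatin at cut MboI sites. The promoter end of Ccnd3 is the 250 bases before a RefSeq TSS in its downstream group of TSSs (chr17:47593217-47593466, plus strand). It runs past the first GENCODE TSS of that group, at 47593436. The promoter end of Cdkn1a is the 250 bases before a TSS that the loop anchors cover (chr17:29093519-29093768, plus strand). Each of these promoter stretches overlaps 1 annotated exon. The far end of the strongest Ccnd3 loop is shown by the 89 bases free of annotated exons nearest to its centre, between the starts of Bysl and Med20 (chr17:47611493-47611581, plus strand). The far end of the strongest Ccnd2 loop is shown by the central 300 bases of an anchor without an annotated gene (chr6:127497392-127497691, plus strand), which was chosen after its values were seen.
Ccnd3 promoter: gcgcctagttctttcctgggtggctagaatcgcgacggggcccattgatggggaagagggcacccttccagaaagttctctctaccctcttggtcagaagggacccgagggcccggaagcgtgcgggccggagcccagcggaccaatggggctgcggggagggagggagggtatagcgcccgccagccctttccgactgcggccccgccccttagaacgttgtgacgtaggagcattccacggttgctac
Cdkn1a promoter: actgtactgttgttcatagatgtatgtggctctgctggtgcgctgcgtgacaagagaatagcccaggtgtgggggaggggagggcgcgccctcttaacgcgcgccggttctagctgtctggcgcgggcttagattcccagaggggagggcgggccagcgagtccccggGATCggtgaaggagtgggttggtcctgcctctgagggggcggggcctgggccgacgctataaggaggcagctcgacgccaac
Bysl and Med20 end: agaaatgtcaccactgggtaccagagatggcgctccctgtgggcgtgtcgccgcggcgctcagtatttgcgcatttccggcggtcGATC
Ccnd2 intergenic end: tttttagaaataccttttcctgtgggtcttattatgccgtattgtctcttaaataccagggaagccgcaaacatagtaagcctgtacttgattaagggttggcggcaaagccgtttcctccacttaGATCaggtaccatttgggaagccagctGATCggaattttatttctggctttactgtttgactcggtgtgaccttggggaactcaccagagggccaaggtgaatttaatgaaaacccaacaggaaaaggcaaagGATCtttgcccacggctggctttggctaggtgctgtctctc
The Ccnd3 stretch held 0 MboI sites and the Cdkn1a stretch 1, and 41.9% of the same 250-base windows of all RefSeq promoters held at least 1. The Ccnd2 intergenic stretch held 3, against at least 1 in 54.5% of the central 300 bases of all 16864 distinct anchors. The Bysl and Med20 stretch held 1, and 20.5% of the central 89 bases of these anchors held at least 1. The E-box CACGTG, which Myc proteins bind with their partner Max, the AP-1 site TGANTCA and the E2F site TTTCGCGC were searched on both strands and had 0 matches in the 4 stretches. In the promoter windows these motifs were held by 6.02%, 6.75% and 0.256%, in the anchor centres of 300 bases by 6.23%, 5.19% and 0.380%, and in those of 89 bases by 1.70%, 1.61% and 0.0830%. The GC content was 64.8% in both promoter stretches and 46.0% in the intergenic one.

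The 10 genes were chosen with earlier results of these data known, so the shares below describe the chosen genes and are no measure of enrichment. All 10 genes had at least 1 loop, against 45.8% of the 21951 protein-coding genes in GENCODE. A loop of at least 4 tags was found at 6 of the 10, against 8.51% of protein-coding genes and 18.6% of the looped ones, and a loop score of at least 20 at 4 of the 10, against 4.81% and 10.5%. The protein-coding genes include those with no listed loop, and whether these are expressed in the tumors was not tested. Beside the 10050 with a loop the 10 genes stood less apart, with a median loop score of 8 against 4 and a median of 4.5 loops against 3. The loops of 5 of the 10 genes came from both parts (Ccnd2, Ccnd3, Cdk4, Cdk6 and Cdkn1a), against 24.3% of protein-coding genes and 53.1% of the looped ones. E2f3 and Cdkn2a had loops in the first part only, and Ccnd1, Myc and Mycn in the second part only. The 10 genes held 140 tags in all, 107 from the first part and 33 from the second. The second part thus gave 23.6% of their tags, and it gave 31.1% of all tags in the list.

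The loop scores covered a wide range. Ccnd3 had the highest score of the 10 genes, 39 tags (interval 27.7 to 53.3), which ranked 361 among the 10050 looped protein-coding genes. Ccnd2 had 27 tags (17.8 to 39.3) and ranked 637. Cdkn1a with 22 tags (13.8 to 33.3) and Cdk4 with 21 tags (13 to 32.1) ranked 848 and 917. These 4 genes had overlapping intervals, so their order is not resolved by the counts. Cdk6 and Cdkn2a had 8 tags each (3.45 to 15.8), and Myc and E2f3 6 tags each (2.20 to 13.1). Ccnd1 had 2 tags (0.242 to 7.22) and Mycn 1 tag (0.0253 to 5.57), and the latter is the lowest score that a looped gene can have. The intervals of Ccnd3 and Ccnd2 lay above those of Cdk6 and of every gene with a lower score, while those of Cdkn1a and Cdk4 overlapped that of Cdk6. These intervals describe the listed tags alone and do not settle which genes differ, since contacts with too few tags were not listed. The D-type cyclin genes together carried 68 of the 140 tags, the kinase genes 29, the inhibitor genes 30, E2f3 6 and the Myc genes 7.

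**Figure D1:**
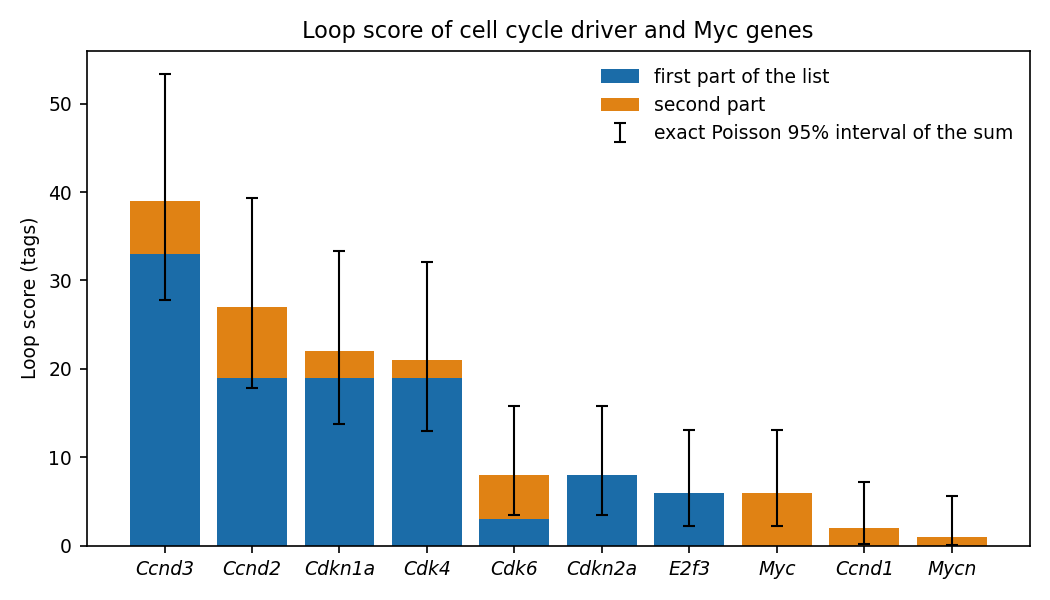
Loop score of each gene in tags (vertical axis), stacked by part of the list (blue, first part; orange, second part), with the exact Poisson 95% interval of the sum as error bars. Ccnd3, Ccnd2, Cdkn1a and Cdk4 lie between 21 and 39 tags, the other 6 genes between 1 and 8, and the bars of Ccnd1, Myc and Mycn are from the second part alone.

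**Figure D2:**
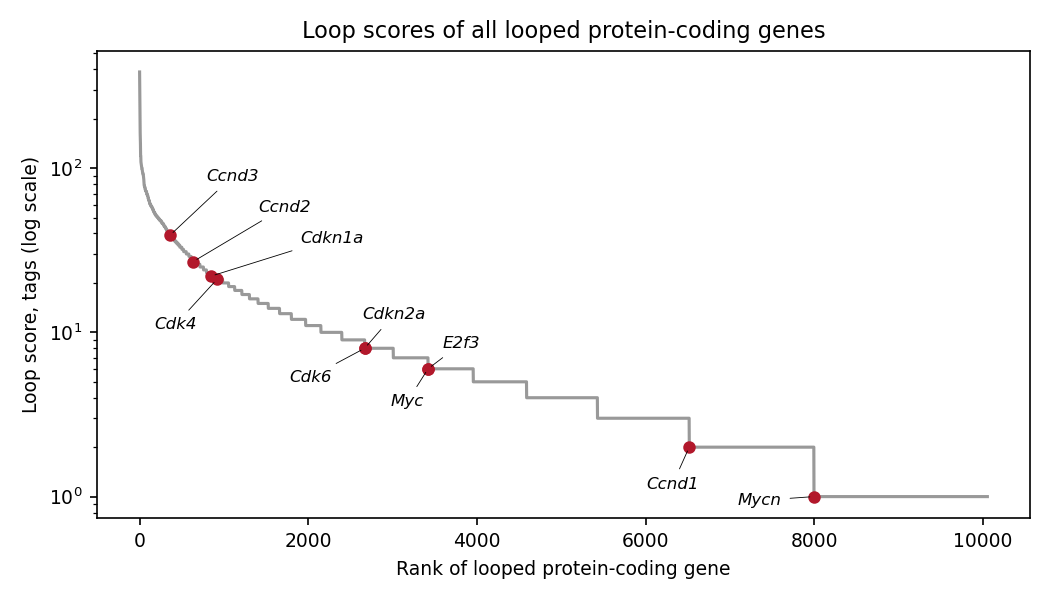
Loop score in tags (log scale) of all 10050 looped protein-coding genes against their rank (grey line), with the 10 genes in red. Ccnd3 ranks 361 and Mycn 7994, at the first of the genes with a score of 1.

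The anchors at the promoters differed in width, from 1.58 to 6.12 kb, and a wider anchor can collect more tags. Per kb of promoter anchor Cdk4 had the highest density, 7.70 tags per kb over 2.73 kb. Cdkn1a and Ccnd3 followed with 5.38 tags per kb each, Cdkn2a had 3.88 and Ccnd2 3.80. Myc had 0.982, Ccnd1 0.327 and Mycn 0.303 tags per kb. Ccnd1 and Mycn were thus lowest on both scales, by score and per kb. Without the loops shorter than 20 kb, a setting chosen after the values were seen, Ccnd2 came first with all of its 27 tags, Ccnd3 had 24, Cdkn1a 22 and Cdk4 11, and Cdkn2a had 0.

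How many tags a loop needed to enter the list depended on its span, measured from the midpoint of an anchor to that of the other. In the first part no loop under 20 kb had fewer than 8 tags, and single-tag loops began at 344.2 kb. In the second part no loop under 20 kb had fewer than 4 tags, and single-tag loops began at 108.8 kb. A single tag supported 40 of the 63 loops of the 10 genes (63.5%, 51.1 to 74.3%), and 78.0% of all loops. Loops of a gene share promoter anchors, and Ccnd3 alone gave 18 of the 63 loops and 14 of the 40. The interval may therefore be too narrow to set against the share of all loops. Compared with loops of the same part within 20% of the same span, 43 of the 63 had the fewest tags found there. The other 20 exceeded that floor and belonged to 7 of the genes, which leaves Ccnd1, Mycn and Cdkn2a with no loop above it. The share of all loops at this floor was not computed, so these counts cannot be set against the whole list. Among the 63 loops, 11 (17.5%) had an FDR under 0.001, against 8.06% of all loops. The median span was 454.8 kb, against 500.3 kb over all loops.

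**Figure D3:**
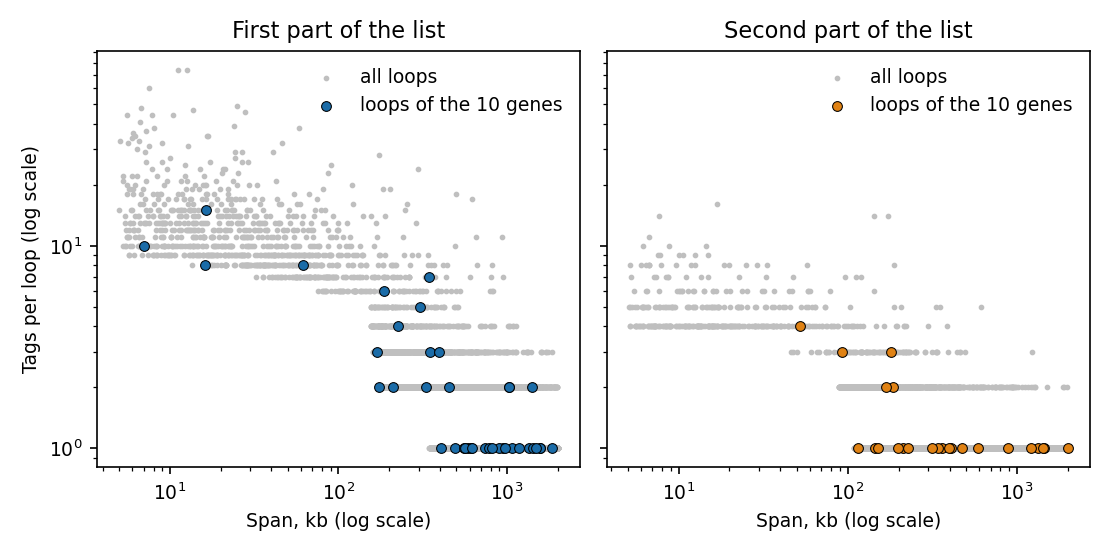
Tags per loop against span in kb (both log scales) in the first part (left) and second part (right) of the list, with all loops in grey and the loops of the 10 genes in colour. The lower edge of the grey points falls in steps with span, and the 8-tag Cdkn2a loop at 16.2 kb lies on that edge while the 7-tag Ccnd2 loop at 343.7 kb lies well above it.

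The D-type cyclin genes differed in where their tags went. Ccnd3 (ENSMUSG00000034165.16, chromosome 17 of mm10, 47505051 to 47599691, plus strand) has an upstream and a downstream group of TSSs. The downstream group (47593436 to 47597164), whose promoter stretch is printed above, held 13 loops and 29 tags. Its strongest loop, with 15 tags (FDR 3.53e-04), was the loop with the most tags at any of the 10 genes and spanned 16.3 kb to the shared promoter anchor of Bysl and Med20, a ribosome assembly factor gene and a Mediator subunit gene, where Gm20517 also starts. Of the loops of like span in the first part, 26.7% had at least as many tags. The upstream group (47505051 to 47505241) held 5 loops and 10 tags, but its anchors lay 1.90 kb before the TSS and also near the TSS of Taf8, a TFIID subunit gene, so that all 10 tags count for Taf8 too. The strongest of these had 6 tags (FDR 2.14e-06) and reached Frs3 and Tomm6, 185.9 kb away, where Tomm6os also starts. With a promoter window of 1 kb the upstream group was lost and Ccnd3 had 29 tags. Of the remaining 16 loops of Ccnd3, 14 rested on a single tag and the others on 2 tags each. Only 1 of its loops ended far from a TSS, with a single tag in the second part.
Ccnd2 (ENSMUSG00000000184.12, chromosome 6, 127125162 to 127152193, minus strand) had 11 loops, and 9 of them ran upstream of the gene. Of its 27 tags, 17 went to anchors with no TSS within 2 kb, and 10 of those 17 joined Ccnd2 to a single intergenic anchor (127495457 to 127499628, 9.66 kb from the nearest TSS), part of whose sequence is printed above. These 10 tags were split over 2 neighboring promoter anchors, with 7 tags at 343.7 kb (FDR 7.18e-13, the lowest FDR of the 63 loops) and 3 tags at 347.4 kb (FDR 1.18e-04). Among first-part loops of like span, 0.703% had 7 or more tags. A further loop of 5 tags (FDR 5.39e-08) reached Parp11, a mono-ADP-ribosyltransferase gene, 303.2 kb away. In the second part the upstream loops had 3 tags at 179.9 kb (FDR 4.09e-05), 2 tags at 186.5 kb (FDR 1.58e-03) and 1 tag each at 115.8 and 410.6 kb, and all but the last ended at intergenic anchors. Downstream, the anchor of D6Wsu163e and the recombination factor gene Rad51ap1 was joined to Ccnd2 in both parts, by 2 tags and 1 tag. The intergenic anchor held 15 tags over 7 loops of the whole list, so 10 of its 15 tags led to Ccnd2. All 7 loops were in the first part, though the second part listed single-tag loops from 108.8 kb. The Parp11 anchor also joined the Rad51ap1 anchor directly, by 4 tags across Ccnd2 (514.0 kb, FDR 1.99e-07). The antisense gene 9330179D12Rik starts in or within 2 kb of some of the Ccnd2 promoter anchors and shared 9 of the 11 loops and 19 of the 27 tags.
Ccnd1 (ENSMUSG00000070348.5, chromosome 7, 144929931 to 144939925, minus strand) had 2 loops of a single tag each, both in the second part, at 359.5 and 342.1 kb. Its promoter anchor was the widest of the 18 promoter anchors, 6.12 kb with 8 MboI sites. Within 500 kb of Ccnd1 the list held 8 loops, none of more than 1 tag, against 103 loops around Ccnd3 and 32 around Ccnd2. No loop of more than 1 tag was listed at Ccnd1, and the first part held 0 of its loops.

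**Figure D4:**
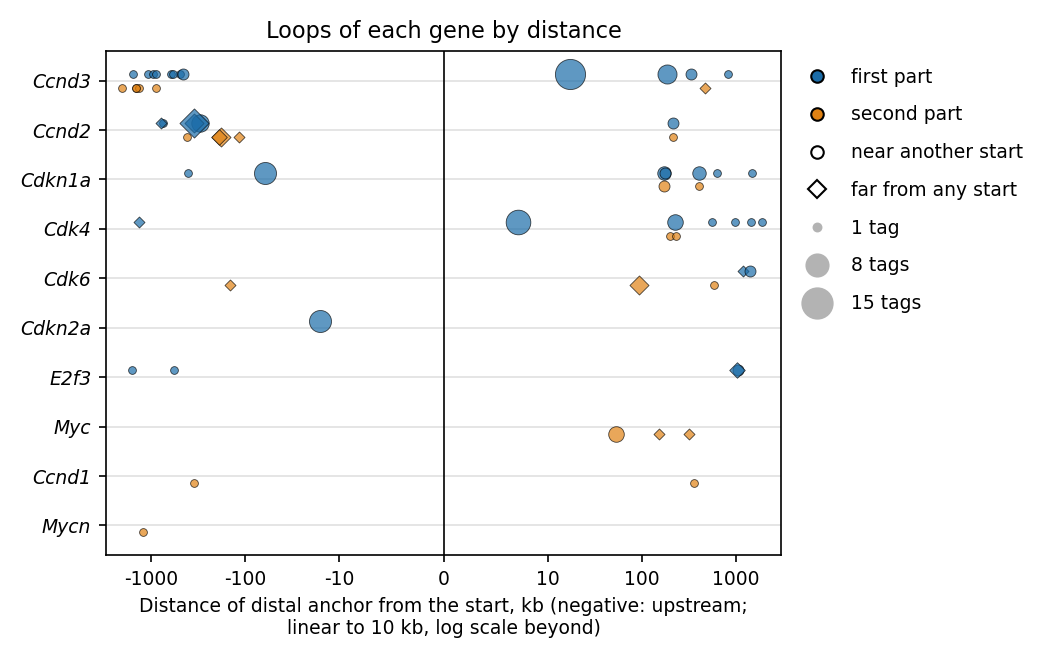
Distance of the distal anchor of each loop from the TSS in kb (horizontal axis, negative upstream, linear to 10 kb and log scale beyond) for each gene. Point area is proportional to tags, colours give the part of the list, and diamonds mark distal anchors with no other TSS within 2 kb; 9 of 11 Ccnd2 loops lie upstream and the 3 Myc loops all lie downstream.

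The kinase genes were looped in both parts. Cdk4 (ENSMUSG00000006728.12, chromosome 10, 127063534 to 127067920, plus strand) had 9 loops and 21 tags, 19 of them in the first part. Its strongest loop had 10 tags and spanned 7.07 kb to the anchor of Tspan31, a tetraspanin gene, and A730063M14Rik. The FDR of that loop was 0.0271, and 88.3% of loops of like span had at least 10 tags. The anchor of Ddit3, which encodes the stress factor CHOP, and of Mbd6, Gm20492 and Gm4189 was joined to Cdk4 in both parts, by 4 tags at 225.6 kb (FDR 4.08e-05) in the first and 1 tag in the second. The first of these exceeded most loops of like span, of which 15.5% had as many tags. Cdk4 lies in a dense stretch of loops, with 105 loops within 500 kb, and with a window of 5 kb it had 16 loops and a score of 28. Cdk6 (ENSMUSG00000040274.11, chromosome 5, 3341485 to 3531008, plus strand) had 5 loops and 8 tags, 3 from the first part and 5 from the second. Its strongest loop, with 3 tags in the second part (FDR 4.54e-03), stayed within the gene, between the promoter and an intron anchor 92.7 kb downstream that lies 30.7 kb from the nearest TSS. That intron anchor was 8.94 kb wide, against a median of 2.59 kb over all anchors, and a wider anchor can collect more tags. Of loops of like span in the second part, 23.8% had at least 3 tags. A loop of 2 tags spanned 1414 kb to Fzd1, a Wnt receptor gene (FDR 4.16e-04), and 5.89% of loops of like span had as many. Fzd1 lies at the end of a loop with under 4 tags and was named after its values were seen.

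The inhibitor genes had 30 tags together and ended in promoters. Cdkn1a (ENSMUSG00000023067.14, chromosome 17, 29090976 to 29100727, plus strand) had 9 loops and 22 tags, and every distal anchor lay near the TSS of another gene. Its anchors covered the TSSs at 29093769 and 29093781 and lay more than 2 kb from those at 29090976 and 29090979. The strongest loop, with 8 tags (FDR 0.0262), spanned 62.0 kb upstream to Srsf3, a splicing factor gene, and Gm16196, and 74.6% of loops of like span had at least 8 tags. Downstream, the anchor of Ppil1, a splicing-associated isomerase gene, and AC162182.3 was joined in both parts, by 3 tags and 2 tags. The anchor of Pim1, a kinase gene whose product supports cell growth, and Gm26885 was also joined in both parts, by 3 tags at 396.3 kb (FDR 8.32e-05) and 1 tag. Of first-part loops of like span, 8.94% had 3 tags or more. The unconfirmed gene AC167363.2 lies at the same anchors and shares all 22 tags.
Cdkn2a (ENSMUSG00000044303.6, chromosome 4, 89274471 to 89294653, minus strand) had a single loop, of 8 tags in the first part, from the upstream TSS at 89294653, the start of the Arf transcript, to the TSS of the neighboring inhibitor gene Cdkn2b, 16.2 kb away. Its FDR was 0.0479, close to the limit of the list at 0.05, and all loops of like span had at least 8 tags. The downstream TSS at 89282192 had 0 loops in the list. In the first part no loop under 20 kb had fewer than 8 tags, and none under 100 kb fewer than 6. In the second part these limits were 4 and 2 tags, so a weaker contact of this TSS would not be listed. The list held 2 loops within 500 kb of the gene, and the second was a single tag from Cdkn2b that passed over Cdkn2a.

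E2f3 (ENSMUSG00000016477.18, chromosome 13, 29906575 to 29986063, minus strand), a factor that activates S phase genes, had 4 loops and 6 tags, all in the first part. Of these, 4 tags ran downstream to neighboring anchors, 2 tags at 1032 kb to the TSS of Sox4 and 2 tags at 1026 kb to an intergenic anchor 3.30 kb from a TSS (FDR 5.30e-04 for each). Loops of like span with as many tags made up 9.79% and 9.93%. Sox4, a developmental transcription factor gene, was named after its values were seen. With loops up to 1 Mb alone, E2f3 kept 1 tag.

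The Myc genes had 7 of the 140 tags. Myc (ENSMUSG00000022346.15, chromosome 15, 61985391 to 61990374, plus strand) had 3 loops and 6 tags, all in the second part and all downstream, toward the long noncoding RNA gene Pvt1. The strongest, with 4 tags (FDR 0.0156), spanned 52.1 kb to the start of Pvt1 and of Gm27913, and 88.9% of loops of like span in the second part had at least 4 tags. The other 2 loops had 1 tag each, at 150.9 and 316.6 kb, and ended in introns of Pvt1, 29.2 and 79.6 kb from the nearest TSS. These 3 were the only loops of the list within 500 kb of Myc, and the first part held 0. No first-part loop under 100 kb had fewer than 6 tags, so a contact of 4 tags at 52.1 kb would not be listed there. The unconfirmed gene Gm37947 starts in or within 2 kb of the Myc anchor and shares the 6 tags. Mycn (ENSMUSG00000037169.15, chromosome 12, 12936093 to 12941914, minus strand) had 1 loop of 1 tag in the second part, 1211 kb upstream, and the list held 2 loops within 500 kb of it.

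The 63 loops ended in 56 distal sites, with overlapping anchors of a gene merged. Another gene started within 2 kb of 43 of them (76.8%, 64.2 to 85.9%), and 13 lay far from any TSS, 9 of them between genes and 4 in introns or exons. This interval may also be too narrow, since the sites of a gene are not independent. Counted by loops, 77.8% of the loops of the 10 genes ended near another TSS, against 87.9% of the 48777 pairs of a loop and a protein-coding gene in the list. The far sites received 28 of the 140 tags, and 17 of these 28 came from Ccnd2. Sites joined to the same gene in both parts numbered 4, at Rad51ap1 for Ccnd2, Ddit3 and Mbd6 for Cdk4, and Ppil1 and Pim1 for Cdkn1a. Their anchors held 9, 18, 11 and 13 loops of the whole list in that order. The share of such sites over all genes was not computed, so the count cannot be set against a background. No loop joined 2 of the 10 genes to each other.

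The other genes of the pathway were read from lists chosen with earlier results of these data known. With the 10 genes included, loops reached 39 of 49 genes (79.6%), and without them 29 of 39 (74.4%), against the 45.8% of protein-coding genes given above. All 8 cyclin genes were looped, 4 of 5 kinase genes, 6 of 7 CDK inhibitor genes, 8 of 10 E2F factor genes, 9 of 11 MYC network genes, 3 of 5 p53 axis genes and 1 of 3 pocket protein genes. Cdkn1b, which encodes the inhibitor p27, had the highest score of the 49 genes, 51 tags in 4 loops, all in the first part. Of these, 31 tags reached Lockd and Gm44238 over 7.56 kb and 17 tags Gpr19 and 2810454H06Rik over 22.2 kb, partners that were named after their values were seen. Mnt, a repressor that competes with Myc for Max, had 26 tags, 25 of them in the first part, and Myc had 6, all in the second. Of the Mnt tags, 16 lay in a loop of 6.68 kb to an anchor with no other TSS within 2 kb. E2f1 had 20 tags, 10 of them in a loop of 43.5 kb, while the 6 tags of E2f3 lay in loops of 560.4 kb or more. Short loops entered the list only with more tags, and by different limits in the 2 parts, so these scores do not rank the genes. Rbl1 and Trp53 had 16 tags each. The cyclin genes that act after the D-type cyclins had scores of 8 for Ccne2, 6 for Ccna2 and 1 each for Ccne1, Ccnb1 and Ccnb2, beside the median of 4 over looped protein-coding genes. Rb1 and Rbl2, the other pocket protein genes, had 0 loops, as did Cdk7, Cdkn1c, E2f5, E2f8, Mycl, Mxd3, Ccng1 and Gadd45a.

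**Figure D5:**
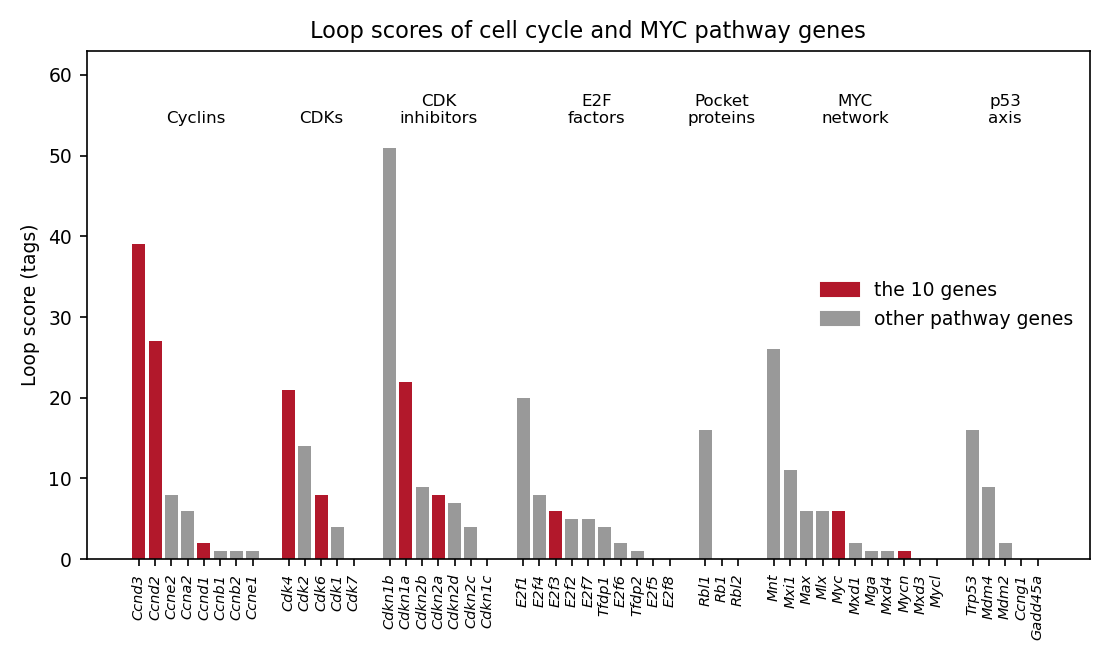
Loop score in tags (vertical axis, from 0) of the 49 genes of 7 pathway lists, with the 10 genes in red and the others in grey. Cdkn1b has the highest bar with 51 tags, and Ccnd3 and Ccnd2 lead the cyclins. Mnt stands above Myc in the MYC network, with 25 of its 26 tags from the first part and all Myc tags from the second.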

How the data were processed

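H3K27ac HiChIP was done by the authors on 2 hSS2 mouse tumors, with MboI digestion, mapping to mm10 by HiC-Pro and loop calling by hichipper with its Mango statistics. The loops of both tumors were merged by the authors, in a way the sources used here do not give. The deposited list holds a count of tags per loop, not normalized, and the FDR of the authors' caller, an adjusted p-value. The methods give an FDR limit of 0.05 and a legend a stricter one of 0.01, and the list runs up to 0.05. The listed loops held 41574 tags, and the sequencing depth of the HiChIP libraries is not given in the sources used here.

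The 10 genes and the pathway lists were chosen with earlier results of these data known. Named genes were the 10 genes, genes within 2 kb of a distal anchor with at least 4 tags or joined in both parts, the pathway genes, and neighbors sharing a promoter anchor. Other names were chosen after the values were seen. TSSs were those of GENCODE vM21 on GRCm38, and every anchor lay within its chromosome of that assembly. Sequences are from RefSeq on GRCm38.p6, whose promoter table had an entry for 7 of the 10 genes and none for Ccnd1, Ccnd2 and Myc. Assignment and scoring were tested on simulated data with planted loops. Python 3.11.15, pandas 2.3.3, scipy 1.17.1 and pysam 0.24.0 were used. The alternatives were windows of 1 and 5 kb, protein-coding or RefSeq transcripts, stricter FDR and tag limits, each part alone, loops up to 1 Mb and anchors resized to 4 kb.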

Additional observations from a re-analysis of the deposited data

How the results depend on the processing

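All 10 genes kept a loop with promoter windows of 1 or 5 kb, with protein-coding or RefSeq transcripts and with anchors of 4 kb, and the median loop score and median number of loops stayed within 1.5 times the values given. The limits on FDR and tags moved most values. With an FDR under 0.01, 6 genes (60%) had loops, 16 in all, with a median score of 4, a median of 1.5 loops and 3 genes in both parts. With an FDR under 0.001, 6 genes (60%) had 11 loops, with medians of 2.5 tags and 1 loop and 1 gene in both parts. With at least 2 tags the genes had 23 loops, a median of 2, and 3 genes in both parts. With at least 4 tags, 6 genes (60%) had 9 loops, a median of 1, 88.9% of distal sites near another TSS and 0 genes in both parts. The first part alone gave 70% of the genes, 39 loops and 86.5% of distal sites near another TSS. The second part alone gave 24 loops and medians of 2.5 tags and 2 loops. Under these limits the genes themselves also changed: an FDR under 0.01 left 0 tags at Ccnd1, Myc, Mycn and Cdkn2a, 4 at Cdk4 and 5 at Cdkn1a, so that of the 4 genes with a score of at least 20 Ccnd3 (25) and Ccnd2 (20) were left, and at least 4 tags left 0 at Ccnd1, Cdk6, Mycn and E2f3. No paired analysis was possible because the merged list holds no value per tumor. Low tag counts limit all of these, since most loops rest on a single tag.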
